A study of Drosophila melanogaster with 15 samples.

Results

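The comparison set sorted midgut progenitor cells of adult Drosophila melanogaster that overexpress seq together with Nicd (seq&Nicd OE) against wild-type progenitors (Ctrl), with 3 RNA-seq libraries in each group. Genes were taken in when they had at least 1 FPKM in at least 3 of these 6 libraries, which gave 6999 of the 17558 genes listed. FPKM is a read count scaled to the length of the transcript and the depth of the library. The whole series holds 15 libraries in 5 groups, and the genotypes of the groups used here are labelled seq&Nicd overexpressed, Nicd overexpressed (Nicd OE, a further 3 libraries) and wild type. In every group the cells were described as intestinal progenitors from midguts of adults on day 7, about 10000 of them sorted for green fluorescent protein, with RNA amplified before library preparation. The labels name no driver, transgene construct, sorting day or batch, and do not say whether the libraries of a group came from separate flies or sorts, so a p-value here measures only the spread between these libraries, which may be technical.

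Notch is a cell-surface receptor that is cut when it binds its ligand Delta, and the freed intracellular domain, Nicd, enters the nucleus and activates target genes together with the DNA-binding protein Su(H). In the fly midgut, stem cells carry Delta, daughters with strong Notch signalling become absorptive enterocytes, and daughters with little Notch signalling become hormone-secreting enteroendocrine cells. The gene seq encodes Sequoia, a zinc-finger protein studied in the fly nervous system, where the neural stem cells are called neuroblasts and are marked by transcription factors such as Deadpan (dpn) and the Snail family members sna and wor.

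Depth, estimated from the steps of the low values, lay between 24600000 and 34600000 reads in seq&Nicd OE libraries, between 26900000 and 34000000 in Nicd OE libraries and between 25100000 and 38300000 in Ctrl libraries. Of these reads, seq&Nicd OE libraries had 39.6% to 48.9% on genes, Nicd OE libraries 33.7% to 48.5%, and Ctrl libraries 56.4% to 62.5%, and the part of that gap in the changes below was not tested. Pairs of seq&Nicd OE libraries correlated at 0.96 to 0.98 over genes and pairs of Ctrl libraries at 0.91 to 0.97, where replicate 2 had the lowest values, so the counts are also given without it. The progenitor marker esg was not matched to the table by name and was not analysed here.

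The genes of the label were read first. The gene seq (FBgn0028991, BDGP6.54 2R:13176553-13190086) had 0 FPKM in all 15 libraries, also in seq&Nicd OE. Other annotated genes overlap its exons at every base, and of 371 protein-coding genes overlapped in this way 345 were listed at 0 in every library, so the values do not check the label. The receptor gene N (FBgn0004647, X:3134870-3172221) had 20.2, 12.1 and 22.5 FPKM in seq&Nicd OE, against 70.9, 41.9 and 76.3 FPKM in Ctrl. It was lower in each seq&Nicd OE library than in any Ctrl library (log2 change -1.73 ± 0.37, adjusted p = 0.0081), and without seq&Nicd OE replicate 2 the call was lost (adjusted p = 0.055). The same gene had 17.2, 19.1 and 29.1 FPKM in Nicd OE. The value covers the whole gene and does not separate reads of a transgene, so it does not check the Nicd label. The gene ttk, which encodes the repressor Tramtrack, had 20.46, 16.5 and 23.9 FPKM in seq&Nicd OE, against 43.6, 11.1 and 36.1 FPKM in Ctrl. These ranges overlapped and ttk was not called (log2 change -0.36 ± 0.47, adjusted p = 0.63), although without Ctrl replicate 2 it was lower in seq&Nicd OE (adjusted p = 0.024).

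In all, 1340 of the 6999 genes changed (19.1%), 568 higher in seq&Nicd OE (8.12%) and 772 lower (11.0%). The test was limma on log2(FPKM + 1) with Benjamini-Hochberg adjustment over all genes tested, and an adjusted p under 0.05 was called. In 36.6% of genes the 3 libraries of each group did not overlap (14.3% higher and 22.3% lower in seq&Nicd OE), which is the background for the overlap statements below. The split depended on scaling: with the columns scaled to a common median it was 819 higher (11.7%) and 725 lower (10.4%), 22.1% in all, and with median-of-ratios scaling 867 higher and 648 lower. The median log2 change of all genes was -0.21 as deposited, -0.07 with median scaling and -0.02 with median-of-ratios scaling, so changes near that size have no fixed sign. Without Ctrl replicate 2, 640 genes were higher and 1477 lower in seq&Nicd OE. With seq&Nicd OE replicate 1 or 2 left out, 348 or 306 genes were lower and 439 or 416 higher, and without Ctrl replicate 3 there were 446 higher and 463 lower. Without Ctrl replicate 1 there were 530 higher and 575 lower, and without seq&Nicd OE replicate 3, 479 and 749. All are out of the same 6999 genes. List counts below with 1 library left out stand beside these totals, and how far they follow them was not tested. Every log2 change below is seq&Nicd OE minus the other group on log2(FPKM + 1), with its standard error, which understates the change of genes with low values. In sorted bulk RNA, fewer cells that express a gene and less of its RNA per cell cannot be told apart.

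**Figure D1:**
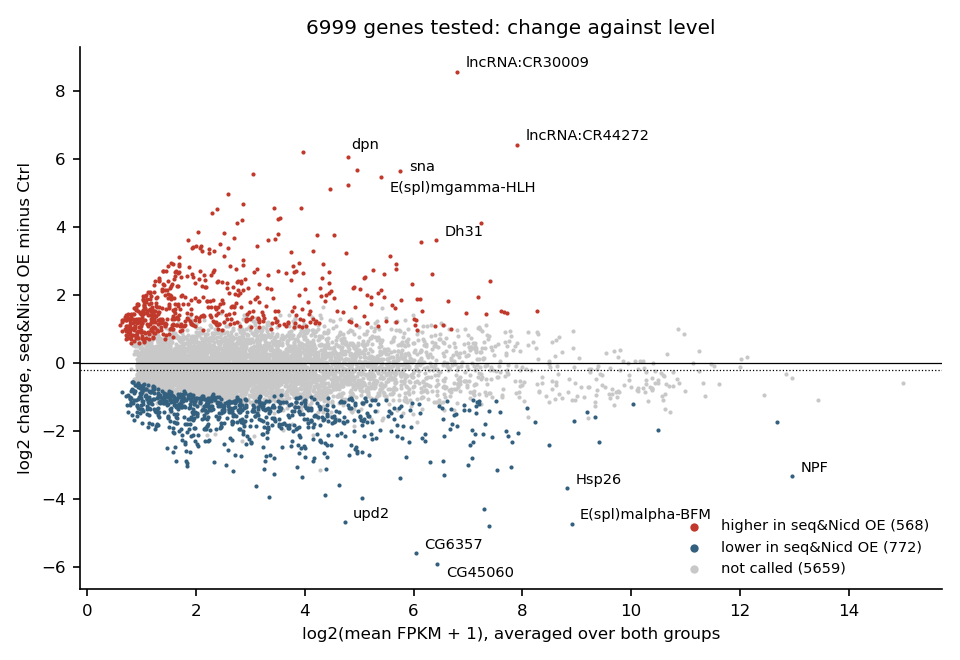
The plot sets the log2 change of each of the 6999 genes (seq&Nicd OE minus Ctrl, on log2(FPKM + 1)) against its level, the log2 of the mean FPKM + 1 averaged over both groups. The 568 genes called higher reach a change of 8.58 at lncRNA:CR30009, the 772 called lower reach -5.93 at CG45060, and the dotted line marks the median of all genes at -0.21.

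Markers of the cell types that a midgut sort could hold were read next. Of the progenitor markers listed, Delta and E(spl)malpha-BFM fell, sna rose, and Sox21a and hdc were not called. All of these except hdc are described below. The 12 enteroendocrine markers, most of which are the hormones and fate factors described below, gave 3 rises and 6 falls, against 8.12% and 11.0% of all genes. Among the falls, Mip passed the filter through Ctrl, where it is high, so this count is a description. The enteroendocrine markers summed to 4895 to 7509 FPKM in seq&Nicd OE and 12817 to 61820.0 FPKM in Ctrl. The 8 enterocyte markers found in the table summed to 379 to 437 FPKM in seq&Nicd OE and 353 to 426 FPKM in Ctrl. None of the 7 that were tested was called, beside 19.1% of all genes called in either direction. Visceral muscle markers summed to 7.02 to 17.5 FPKM in seq&Nicd OE and 2.48 to 3.703 FPKM in Ctrl. Of 13, Mlc1 alone was tested, through its level in seq&Nicd OE, and was called higher (log2 change 2.86 ± 0.36, adjusted p = 0.00038). The myosin gene Mhc was at most 0.0668 FPKM in seq&Nicd OE and 0.0680 FPKM in Ctrl. Haemocyte and fat body markers summed to 29.6 to 50.2 FPKM in seq&Nicd OE and 11.5 to 22.4 FPKM in Ctrl. Of this list crq and apolpp were tested and not called, and crq was called higher with median scaling (0.014), with quantile normalization (0.012), with median-of-ratios scaling (0.013), in the 15-library fit (0.0054) and without Ctrl replicate 2 (0.0488). The yolk protein genes Yp1, Yp2 and Yp3 were under the filter but stood at 6.98, 3.299 and 10.2 FPKM in seq&Nicd OE replicate 1 alone. Trachea and glia markers summed to 74.95 to 114 FPKM in seq&Nicd OE and 79.2 to 251 FPKM in Ctrl. Of these moody and nrv2 were tested and not called, and were lower without Ctrl replicate 2 (adjusted p = 0.015 for moody and adjusted p = 0.027 for nrv2). Under the filter, the glial determinant gene gcm had 1.11, 0.895 and 3.71 FPKM in seq&Nicd OE, against 0.024, 0.0366 and 0.0142 FPKM in Ctrl. The tracheal gene verm had 0.556, 0.633 and 4.11 FPKM in seq&Nicd OE, against 0.044, 0.084 and 0.0651 FPKM in Ctrl, so both were highest in seq&Nicd OE replicate 3. Germline markers summed to 4.25 to 7.67 FPKM in seq&Nicd OE and 1.58 to 2.54 FPKM in Ctrl. Of these piwi, tested through its level in seq&Nicd OE, was called higher (log2 change 1.22 ± 0.25, adjusted p = 0.0064). AGO3 was not called (log2 change 0.84 ± 0.27, adjusted p = 0.0539), though it was called higher with median scaling (0.040), with quantile normalization (0.038), with median-of-ratios scaling (0.035), in the 15-library fit (0.0020) and without Ctrl replicate 2 (0.014). The part of these cell types in the changes was not tested.

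The largest rise was in a non-coding gene, and transcription factors of neuroblasts, a cytoskeletal gene of neurons and a Notch target stood among the next. The long non-coding RNA gene lncRNA:CR30009 (FBgn0050009, 2R:10261315-10263827) had 2719.6, 1992 and 1785 FPKM in seq&Nicd OE, against 4.48, 3.15 and 6.56 FPKM in Ctrl. Its lowest seq&Nicd OE library was above its highest Ctrl library by a wide gap, and the ratio of the means was 458-fold (log2 change 8.58 ± 0.35, adjusted p = 5.6e-07). A further non-coding gene, lncRNA:CR44272 (FBgn0265299, 2R:7992196-7992567), had 1619, 2784 and 2317 FPKM in seq&Nicd OE, against 19.9, 24.2 and 29.8 FPKM in Ctrl. It was 90.9-fold higher in seq&Nicd OE by the means, with no overlap (log2 change 6.43 ± 0.34, adjusted p = 4.3e-06). The stathmin gene stai (FBgn0266521, 2L:6100377-6124653), whose protein binds tubulin, had 228, 213 and 219 FPKM in seq&Nicd OE, against 2.43, 3.07 and 4.76 FPKM in Ctrl. All 3 seq&Nicd OE libraries lay close together and far above Ctrl (log2 change 5.68 ± 0.32, adjusted p = 5.0e-06).

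Among the 15 largest rises were also genes of defence and cell death and uncharacterised genes. Idgf4 (FBgn0026415, X:9927973-9930948), which encodes an imaginal disc growth factor of the chitinase-like family, had 34.9, 25.2 and 132 FPKM in seq&Nicd OE, against 0.0853, 0 and 0.0504 FPKM in Ctrl. It was almost without reads in Ctrl, where the 3 libraries held 9 reads in all, and rose in all 3 seq&Nicd OE libraries, replicate 3 the highest (log2 change 5.58 ± 0.52, adjusted p = 8.3e-05, and 4.88 without seq&Nicd OE replicate 3). As Idgf4 passed the filter through seq&Nicd OE, its rise is a description. Listericin, which encodes an antibacterial protein, had 65.9, 51.97 and 99.7 FPKM in seq&Nicd OE, against 1.39, 1.503 and 3.49 FPKM in Ctrl. The groups were again far apart (log2 change 4.57 ± 0.38, adjusted p = 4.1e-05). Listericin was the only call, 1 of 7, among the immune effectors tested, beside 8.12% of all genes called higher and 11.0% lower. Of the 25 immune effectors found in the table, the others were under the filter. CG13460 had 77.5, 42.9 and 373 FPKM in seq&Nicd OE, against 0.539, 0.294 and 0.592 FPKM in Ctrl, so replicate 3 of seq&Nicd OE was several times the others (log2 change 6.21 ± 0.64, adjusted p = 0.00013). Its change was 6.87 without seq&Nicd OE replicate 2 and 5.32 without seq&Nicd OE replicate 3. CG13460 also passed the filter through seq&Nicd OE, so its rise is a description. The others of the 15 were CG6006 (log2 change 5.25), a predicted transporter gene, CG12911 (4.97), CG34342 (4.52) and 2SrRNA:CR45864 (5.11), a ribosomal RNA gene in many copies. The last of these had 334, 274 and 4.82 FPKM in seq&Nicd OE, against 1.74, 1.33 and 1.03 FPKM in Ctrl, with replicate 3 of seq&Nicd OE close to Ctrl, and as its reads can belong to any copy its value is uncertain. Its call was lost with no filter on low values (adjusted p = 0.070), and its change was 4.09 without seq&Nicd OE replicate 1, 4.24 without seq&Nicd OE replicate 2 and 7.02 without seq&Nicd OE replicate 3. Each of the 15 kept its call with every library left out in turn and with median scaling.

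Of the neuroblast factors that passed the filter, dpn, sna, wor, ind and scrt rose, pnt fell, and vnd, pros and klu were not called. Of 24 neuroblast transcription factors listed, 9 were tested, of which 5 rose and 1 fell, against 8.12% and 11.0% of all genes, and the median log2 change of the 9 was 2.73 against -0.21 for all genes. Only 7 of the 9 averaged at least 1 FPKM in Ctrl, so the others passed the filter through the group where they are high, and these counts are a description. Deadpan's gene dpn (FBgn0010109, 2R:8228971-8232330), a bHLH repressor that maintains neuroblasts, had 211, 167 and 296 FPKM in seq&Nicd OE, against 2.91, 1.45 and 2.75 FPKM in Ctrl. Every seq&Nicd OE library was far above every Ctrl library (log2 change 6.06 ± 0.35, adjusted p = 5.0e-06), although 59.3% of its exon bases are shared with an overlapping gene, which makes its level uncertain. The Snail family gene sna (FBgn0003448, 2L:15476593-15478260) had 396, 353 and 385 FPKM in seq&Nicd OE, against 4.22, 7.23 and 8.72 FPKM in Ctrl. Its 3 seq&Nicd OE libraries lay within a narrow range, 56.2-fold above Ctrl by the means (log2 change 5.66 ± 0.34, adjusted p = 5.2e-06). A further member of that family, wor (FBgn0001983, 2L:15423297-15425580), had 53.1, 41.5 and 60.9 FPKM in seq&Nicd OE, against 1.35, 0.734 and 1.64 FPKM in Ctrl, with no overlap (log2 change 4.56 ± 0.33, adjusted p = 1.7e-05).

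A further 2 members of the list rose at lower levels. The Snail-related gene scrt, which is expressed in neural cells, had 11.8, 12.7 and 11.2 FPKM in seq&Nicd OE, against 0.81, 0.824 and 1.22 FPKM in Ctrl, all above Ctrl (log2 change 2.73 ± 0.28, adjusted p = 0.00014). The homeobox gene ind, which patterns neuroblasts along the embryo's axis, had 13.1, 17.8 and 10.9 FPKM in seq&Nicd OE, against 0.255, 0.954 and 0.219 FPKM in Ctrl, also without overlap (log2 change 3.35 ± 0.32, adjusted p = 9.3e-05). A further patterning gene of the same kind, vnd, had 9.43, 8.64 and 8.22 FPKM in seq&Nicd OE, against 6.15, 1.92 and 4.47 FPKM in Ctrl and was not called (log2 change 1.01 ± 0.37, adjusted p = 0.083). vnd was called higher with median scaling (0.021), with quantile normalization (0.019), with median-of-ratios scaling (0.018), in the 15-library fit (0.014) and without Ctrl replicate 1 (0.042). Of the factors that act in neuroblast daughters, pros had 7.67, 7.39 and 6.19 FPKM in seq&Nicd OE, against 6.76, 8.704 and 11.2 FPKM in Ctrl. These ranges overlapped (log2 change -0.27 ± 0.32, adjusted p = 0.60). The list's single fall was pnt, the ETS factor of EGFR signalling, with 1.803, 1.29 and 2.27 FPKM in seq&Nicd OE, against 12.9, 4.03 and 12.9 FPKM in Ctrl (log2 change -1.84 ± 0.42, adjusted p = 0.011). That call was lost without seq&Nicd OE replicate 2 (0.059). The proneural neuroblast gene ase was under the filter, as were 14 further members that include erm, btd, tll, SoxN and nerfin-1.

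**Figure D2:**
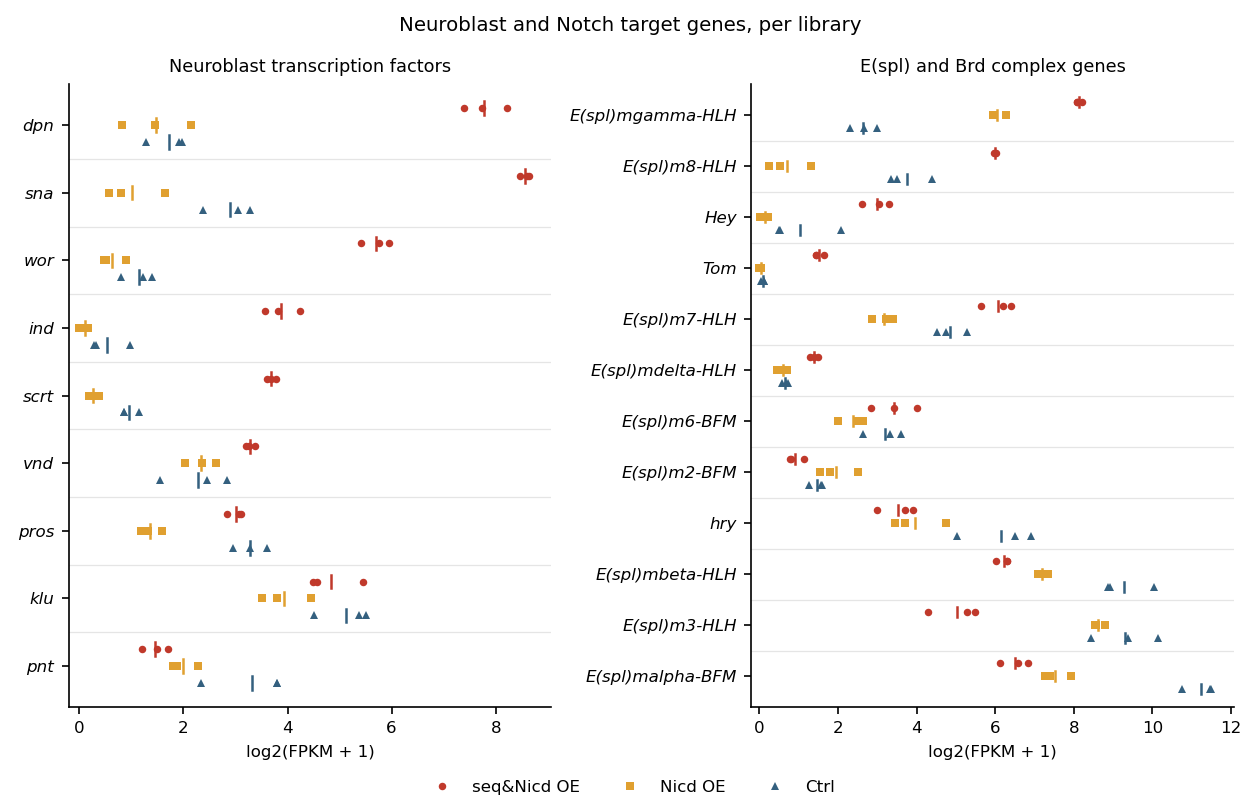
Points give the log2(FPKM + 1) of each library for the tested members of 2 lists, with seq&Nicd OE in red above Nicd OE in yellow and Ctrl in blue, and vertical ticks for the group means. For dpn, sna, wor, ind and scrt the seq&Nicd OE libraries stand clear of all others. By the group means the E(spl) genes split between those highest in seq&Nicd OE (E(spl)mgamma-HLH, E(spl)m8-HLH, E(spl)m7-HLH) and those highest in Ctrl (E(spl)malpha-BFM, E(spl)m3-HLH, E(spl)mbeta-HLH). For E(spl)m3-HLH, Ctrl replicate 2 lies under every Nicd OE library.

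Temporal factors, which neuroblasts express in sequence to vary their progeny, moved in both directions: of 6 tested among 17 found in the table, 2 rose and 2 fell, against 8.12% called higher and 11.0% called lower of all genes. Both rises, chinmo and cas, averaged under 1 FPKM in Ctrl and passed the filter through seq&Nicd OE, where they are high, so their rise is a description. The early-fate gene chinmo had 7.23, 8.28 and 24.7 FPKM in seq&Nicd OE, against 0.314, 0.262 and 0.271 FPKM in Ctrl, highest in replicate 3 and without overlap (log2 change 3.29 ± 0.41, adjusted p = 0.00036). At a low level the gene cas rose as well, with 3.27, 1.69 and 1.97 FPKM in seq&Nicd OE, against 0.364, 0.0379 and 0.166 FPKM in Ctrl (log2 change 1.46 ± 0.23, adjusted p = 0.0012). The RNA-binding gene lin-28 had 11.5, 9.64 and 12.5 FPKM in seq&Nicd OE, against 63.1, 102 and 67.4 FPKM in Ctrl, lower in every seq&Nicd OE library (log2 change -2.66 ± 0.33, adjusted p = 0.00034). The ecdysone-induced gene Eip93F had 29.5, 20.2 and 12.5 FPKM in seq&Nicd OE, against 56.8, 53.7 and 70.3 FPKM in Ctrl (log2 change -1.57 ± 0.37, adjusted p = 0.013). Its call was lost without seq&Nicd OE replicate 2 (0.0518) and without Ctrl replicate 3 (0.0537). Syp, an RNA-binding gene of late neuroblasts, had 57.3, 52.5 and 40.96 FPKM in seq&Nicd OE, against 103, 27.95 and 98.6 FPKM in Ctrl, with overlap (log2 change -0.397 ± 0.48, adjusted p = 0.61), and was lower only without Ctrl replicate 2 (adjusted p = 0.015). Without that library 4 of the 6 fell, beside 1477 of all 6999 genes. Without seq&Nicd OE replicate 2 or Ctrl replicate 3, 1 did, beside 306 or 463 of all genes. The genes Imp and br were not matched by name.

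Genes of the E(spl) and Brd complexes and related repressors, which are targets of Notch, changed in opposite directions. Of 12 tested among 18 found, 6 rose and 4 fell, against 8.12% called higher and 11.0% called lower of all genes. Of the 12, 10 averaged at least 1 FPKM in Ctrl, and the others, Tom and E(spl)mdelta-HLH, passed the filter through seq&Nicd OE. E(spl)mgamma-HLH (FBgn0002735, 3R:25999851-26000761), a bHLH repressor also expressed in neuroblasts, had 269.8, 293 and 270.2 FPKM in seq&Nicd OE, against 5.29, 6.99 and 3.92 FPKM in Ctrl. The 3 seq&Nicd OE libraries were nearly level and far above Ctrl (log2 change 5.47 ± 0.32, adjusted p = 5.0e-06). The bHLH gene E(spl)m8-HLH (FBgn0000591, 3R:26040240-26041008) had 63.6, 62.6 and 62.1 FPKM in seq&Nicd OE, against 10.3, 19.97 and 9.22 FPKM in Ctrl, again a narrow range above all Ctrl libraries (log2 change 2.25 ± 0.35, adjusted p = 0.0013). Hey, a Notch target related to these repressors, had 5.08, 8.87 and 7.23 FPKM in seq&Nicd OE, against 0.433, 3.21 and 0.42 FPKM in Ctrl, with Ctrl replicate 2 the highest of its group (log2 change 1.95 ± 0.43, adjusted p = 0.0091). The Bearded-family gene Tom rose at a low level, with 1.700, 2.105 and 1.74 FPKM in seq&Nicd OE, against 0.0812, 0.0826 and 0.032 FPKM in Ctrl (log2 change 1.42 ± 0.17, adjusted p = 0.00028). E(spl)m7-HLH rose as well (log2 change 1.24 ± 0.35, adjusted p = 0.031), a call lost with no filter on low values (0.0539), without seq&Nicd OE replicate 1 (0.13), without seq&Nicd OE replicate 2 (0.16) and without Ctrl replicate 1 (0.083). E(spl)mdelta-HLH, at 1.43 to 1.80 FPKM in seq&Nicd OE and 0.489 to 0.669 FPKM in Ctrl, rose too (log2 change 0.72 ± 0.19, adjusted p = 0.021). E(spl)mdelta-HLH lost its call with no filter on low values (0.062), with no variance trend (0.073), without seq&Nicd OE replicate 1 (0.065), without seq&Nicd OE replicate 2 (0.084), without Ctrl replicate 1 (0.081) and without Ctrl replicate 3 (0.064). Without seq&Nicd OE replicate 1 or 2 or Ctrl replicate 1, 4 of the 12 rose, beside 439, 416 and 530 of all 6999 genes.

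The 4 falls were the members with the highest mean FPKM in Ctrl. The Bearded-family gene E(spl)malpha-BFM (FBgn0002732, 3R:26010893-26011568), a Notch target in the gut and other epithelia, had 94.8, 112 and 68.9 FPKM in seq&Nicd OE, against 2823, 2887 and 1715 FPKM in Ctrl. All seq&Nicd OE libraries were far under Ctrl, 26.9-fold lower by the means (log2 change -4.72 ± 0.35, adjusted p = 2.1e-05). The bHLH gene E(spl)m3-HLH (FBgn0002609, 3R:26021823-26023127) had 37.98, 44.04 and 18.6 FPKM in seq&Nicd OE, against 1122, 345 and 659 FPKM in Ctrl, with no overlap (log2 change -4.29 ± 0.47, adjusted p = 0.00020). A close relative, E(spl)mbeta-HLH, had 78.3, 77.96 and 64.4 FPKM in seq&Nicd OE, against 1042, 482 and 463 FPKM in Ctrl, also without overlap (log2 change -3.05 ± 0.38, adjusted p = 0.00035). The related repressor gene hairy, listed as hry, had 12.1, 7.01 and 13.96 FPKM in seq&Nicd OE, against 119, 31.5 and 89.4 FPKM in Ctrl (log2 change -2.601 ± 0.48, adjusted p = 0.0035). Both E(spl)m2-BFM (adjusted p = 0.089) and E(spl)m6-BFM (adjusted p = 0.72) were not called, and 6 members, E(spl)m4-BFM and Brd among them, were under the filter.

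Of the Notch pathway's own parts, 3 of 20 tested fell and none rose, against 11.0% and 8.12% of all genes, with 1 rise (aph-1) under median scaling. The ligand gene Delta (FBgn0000463, 3R:19302731-19326217), which marks the stem cells, had 4.68, 4.31 and 5.58 FPKM in seq&Nicd OE, against 161, 14.8 and 48.4 FPKM in Ctrl. It was lower in all seq&Nicd OE libraries, while the Ctrl libraries spread widely (log2 change -3.11 ± 0.66, adjusted p = 0.0078, and -2.26 without Ctrl replicate 1 and -3.94 without Ctrl replicate 2). The receptor N fell as given above. The ubiquitin-ligase gene dx, a regulator of Notch turnover, had 0.892, 0.561 and 1.68 FPKM in seq&Nicd OE, against 4.65, 1.93 and 5.698 FPKM in Ctrl (log2 change -1.27 ± 0.35, adjusted p = 0.027). dx lost its call with no filter on low values (0.090), without seq&Nicd OE replicate 1 (0.094), without seq&Nicd OE replicate 2 (0.15), without Ctrl replicate 1 (0.058) and without Ctrl replicate 3 (0.095). The DNA-binding partner Su(H) had 1.65, 1.99 and 1.96 FPKM in seq&Nicd OE, against 2.103, 0.931 and 2.44 FPKM in Ctrl, with overlap (log2 change 0.06 ± 0.27, adjusted p = 0.90). Neither the adaptor gene mam (adjusted p = 0.067) nor the co-repressor gene gro (adjusted p = 0.13) was called. The count of falls was 1 without seq&Nicd OE replicate 2 and 8 without Ctrl replicate 2, beside 306 and 1477 of all 6999 genes.

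Proneural and endocrine fate factors fell or were not called. Of 10 tested among 19 found, 3 fell and none rose, against 8.12% called higher and 11.0% called lower of all genes. The bHLH gene tap (FBgn0015550, 3L:17359682-17361811), which is expressed in enteroendocrine precursors, had 1.94, 1.47 and 0.95 FPKM in seq&Nicd OE, against 21.5, 68.1 and 31.8 FPKM in Ctrl. It was low in each seq&Nicd OE library (log2 change -3.94 ± 0.42, adjusted p = 0.00016). The proneural gene sc, a driver of the enteroendocrine fate, had 0.445, 0.648 and 1.05 FPKM in seq&Nicd OE, against 12.5, 3.38 and 6.08 FPKM in Ctrl, without overlap (log2 change -2.14 ± 0.39, adjusted p = 0.0030). It averaged under 1 FPKM in seq&Nicd OE and passed the filter through Ctrl, so its fall and the list's count of falls are a description. The homeobox gene Ptx1 had 20.8, 20.4 and 27.04 FPKM in seq&Nicd OE, against 62.9, 42.6 and 61.6 FPKM in Ctrl (log2 change -1.25 ± 0.32, adjusted p = 0.021). Ptx1 lost its call without seq&Nicd OE replicate 1 (0.11), without seq&Nicd OE replicate 2 (0.11), without Ctrl replicate 1 (0.071) and without Ctrl replicate 3 (0.080). The inhibitor gene emc had 31.6, 29.7 and 31.6 FPKM in seq&Nicd OE, against 260.5, 35.9 and 123 FPKM in Ctrl and was not called (log2 change -1.73 ± 0.58, adjusted p = 0.061). emc was called lower in the 15-library fit (0.012) and without Ctrl replicate 2 (0.00075). Neither dimm, a regulator of peptide-secreting cells (adjusted p = 0.51), nor phyl (adjusted p = 0.90) nor mirr (adjusted p = 0.86) was called. Counts of falls moved to 5 without Ctrl replicate 2, beside 1477 of all 6999 genes.

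Peptide hormone genes split by hormone. Of 12 tested among 17 found, 4 rose and 5 fell, against 8.12% and 11.0% of all genes. Dh31 (FBgn0032048, 2L:8491868-8506845), a calcitonin-like hormone of midgut enteroendocrine cells, had 178, 377 and 234 FPKM in seq&Nicd OE, against 8.696, 55.7 and 14.5 FPKM in Ctrl. Its lowest seq&Nicd OE library was above the highest Ctrl library, which was replicate 2 (log2 change 3.62 ± 0.58, adjusted p = 0.0014, and 4.36 without Ctrl replicate 2). The hormone gene CCHa1 had 148, 176 and 102 FPKM in seq&Nicd OE, against 12.1, 16.5 and 15.6 FPKM in Ctrl, all above Ctrl (log2 change 3.16 ± 0.33, adjusted p = 0.00015). Its relative CCHa2 had 107, 239 and 75.6 FPKM in seq&Nicd OE, against 19.4, 19.5 and 14.1 FPKM in Ctrl, also without overlap (log2 change 2.77 ± 0.43, adjusted p = 0.0011). The glycoprotein hormone subunit gene Gpb5 rose (log2 change 1.19 ± 0.36, adjusted p = 0.042). Gpb5 lost its call with no filter on low values (0.073), without seq&Nicd OE replicate 1 (0.082), without seq&Nicd OE replicate 2 (0.18), without seq&Nicd OE replicate 3 (0.10) and without Ctrl replicate 1 (0.14).

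Neuropeptide F, the most abundant hormone transcript in Ctrl, was among the 15 largest falls. Its gene NPF (FBgn0027109, 3R:16609220-16611325) had 1775, 2403 and 2274 FPKM in seq&Nicd OE, against 6827, 55989 and 26068 FPKM in Ctrl. All seq&Nicd OE libraries were under Ctrl, where the libraries spread by several fold (log2 change -3.33 ± 0.61, adjusted p = 0.0033, and -4.16 without Ctrl replicate 1 and -2.64 without Ctrl replicate 2). Orcokinin had 742, 796 and 641 FPKM in seq&Nicd OE, against 2633, 2902 and 2958 FPKM in Ctrl, a narrow range in both groups without overlap (log2 change -1.96 ± 0.29, adjusted p = 0.00095). The allatostatin genes AstA and Mip fell at lower levels, with 0.878, 0.806 and 3.01 FPKM in seq&Nicd OE, against 14.5, 11.9 and 8.91 FPKM in Ctrl for AstA (log2 change -2.39 ± 0.38, adjusted p = 0.0013) and 0.79, 0.319 and 0.207 FPKM in seq&Nicd OE, against 2.54, 5.93 and 11.6 FPKM in Ctrl for Mip (log2 change -2.25 ± 0.41, adjusted p = 0.0031). As Mip passed the filter through Ctrl, where it is high, its fall and the list's count of falls are a description. CCAP, a peptide gene near 1 FPKM, fell (log2 change -1.203 ± 0.32, adjusted p = 0.024). CCAP lost its call with median scaling (0.076), with quantile normalization (0.057), with median-of-ratios scaling (0.085), with no filter on low values (0.089), without seq&Nicd OE replicate 1 (0.071), without seq&Nicd OE replicate 2 (0.060), without seq&Nicd OE replicate 3 (0.090) and without Ctrl replicate 3 (0.076). AstC had 952, 1335 and 609 FPKM in seq&Nicd OE, against 2604, 1355 and 3715 FPKM in Ctrl and was not called (log2 change -1.36 ± 0.43, adjusted p = 0.0506), but was lower with a floor of 5 FPKM (0.0488), in the 15-library fit (0.010) and without Ctrl replicate 2 (0.0049). Tachykinin's gene Tk overlapped between the groups and was not called (log2 change 0.27 ± 0.54, adjusted p = 0.77). With Ctrl replicate 2 left out, 7 of the 12 fell, beside 1477 of all 6999 genes.

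**Figure D3:**
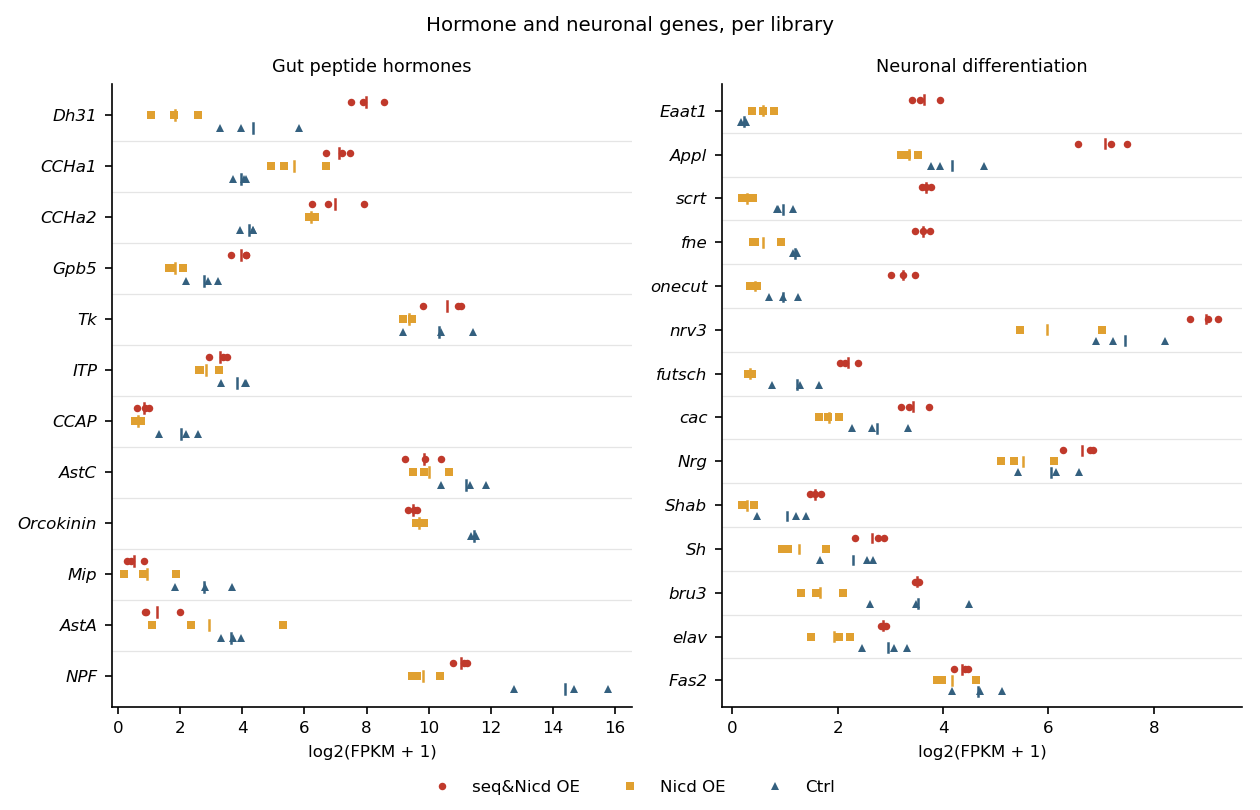
Library values are drawn as log2(FPKM + 1) for the tested hormone genes and neuronal genes, with seq&Nicd OE above Nicd OE and Ctrl and ticks at the group means. Dh31, CCHa1 and CCHa2 lie higher in seq&Nicd OE than in Ctrl and NPF, Orcokinin, AstA and Mip lower, while 7 members of the neuronal differentiation list, the glial transporter gene Eaat1 among them, are called higher in seq&Nicd OE and none lower.

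The list of neuronal differentiation genes, which also holds the glial gene Eaat1, gave rises and no fall. Of 14 tested among 21 found, 7 rose and none fell, against 8.12% called higher and 11.0% called lower of all genes, with 6 rising under median scaling, and 11 of the 14 averaged at least 1 FPKM in Ctrl. Their median log2 change was 0.82, against -0.21 for all genes. The rises Eaat1, scrt and onecut averaged under 1 FPKM in Ctrl and passed the filter through seq&Nicd OE, so these counts and the median are a description. Appl (FBgn0000108, X:530501-579044), the fly's amyloid precursor-like gene, had 179, 145 and 93.5 FPKM in seq&Nicd OE, against 12.7, 14.3 and 26.5 FPKM in Ctrl. All seq&Nicd OE libraries were above Ctrl (log2 change 2.92 ± 0.39, adjusted p = 0.00051). The RNA-binding gene fne, a relative of elav, had 11.3, 12.5 and 10.1 FPKM in seq&Nicd OE, against 1.22, 1.35 and 1.298 FPKM in Ctrl (log2 change 2.42 ± 0.28, adjusted p = 0.00025). Eaat1, a glutamate transporter gene of glia, had 10.8, 9.68 and 14.4 FPKM in seq&Nicd OE, against 0.183, 0.114 and 0.196 FPKM in Ctrl, near 0 in each Ctrl library (log2 change 3.42 ± 0.27, adjusted p = 3.0e-05). The homeobox gene onecut had 8.42, 9.99 and 7.104 FPKM in seq&Nicd OE, against 0.622, 0.956 and 1.37 FPKM in Ctrl, without overlap (log2 change 2.27 ± 0.29, adjusted p = 0.00041), and scrt rose as given above. The sodium pump subunit gene nrv3 had 522, 414 and 596 FPKM in seq&Nicd OE, against 148, 119 and 295 FPKM in Ctrl (log2 change 1.54 ± 0.39, adjusted p = 0.018). nrv3 lost its call with no filter on low values (0.0523), without seq&Nicd OE replicate 1 (0.075), without seq&Nicd OE replicate 3 (0.066) and without Ctrl replicate 1 (0.057). A microtubule-associated protein gene, futsch, rose at 3.11 to 4.26 FPKM in seq&Nicd OE and 0.677 to 2.14 FPKM in Ctrl (log2 change 0.97 ± 0.29, adjusted p = 0.042). futsch lost its call with median scaling (0.0524), with quantile normalization (0.0519), with a pseudocount of 0.1 (0.0520), with no filter on low values (0.099), with no variance trend (0.056), without seq&Nicd OE replicate 1 (0.11), without seq&Nicd OE replicate 2 (0.16), without seq&Nicd OE replicate 3 (0.065), without Ctrl replicate 1 (0.15) and without Ctrl replicate 3 (0.11). The pan-neuronal marker elav had 6.36, 6.51 and 6.04 FPKM in seq&Nicd OE, against 8.98, 4.51 and 7.43 FPKM in Ctrl, with overlap (log2 change -0.08 ± 0.33, adjusted p = 0.89), and ChAT, VGlut, Gad1, Vmat and ple, which mark transmitter types, were under the filter. Members under the filter went both ways. Gad1 had 0.415, 0.275 and 0.330 FPKM in seq&Nicd OE, against 2.98, 0.205 and 3.79 FPKM in Ctrl, with overlap. The gene jeb had 1.73, 2.12 and 0.866 FPKM in seq&Nicd OE, against 0.203, 0.226 and 0.157 FPKM in Ctrl.

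Genes of vesicle release, which neurons and enteroendocrine cells share, gave 6 rises and 1 fall among 22 tested, against 8.12% called higher and 11.0% called lower of all genes. The synaptotagmin gene Syt4 had 15.9, 18.2 and 19.9 FPKM in seq&Nicd OE, against 1.05, 0.808 and 3.47 FPKM in Ctrl, all above Ctrl (log2 change 2.89 ± 0.38, adjusted p = 0.00051). Cadps, which primes dense-core vesicles, had 23.03, 20.1 and 17.02 FPKM in seq&Nicd OE, against 1.796, 2.18 and 2.94 FPKM in Ctrl (log2 change 2.68 ± 0.31, adjusted p = 0.00025). Of the SNARE genes, Snap25 had 3.23, 4.74 and 6.52 FPKM in seq&Nicd OE, against 0.525, 0.227 and 0.608 FPKM in Ctrl, without overlap (log2 change 1.97 ± 0.28, adjusted p = 0.00066). As Snap25 passed the filter through seq&Nicd OE, its rise is a description. The synaptic vesicle gene nSyb had 50.8, 53.95 and 24.00 FPKM in seq&Nicd OE, against 8.64, 28.2 and 16.5 FPKM in Ctrl, with overlap (log2 change 1.28 ± 0.46, adjusted p = 0.077), and was called higher in the 15-library fit (0.0091) and without Ctrl replicate 2 (0.013). The release regulator genes cpx (log2 change 1.67), brp (1.54) and Syt7 (1.41) rose too. These calls were less firm: that of cpx was lost without seq&Nicd OE replicate 2 (0.057), that of brp with no filter on low values (0.070), without seq&Nicd OE replicate 1 (0.10), without seq&Nicd OE replicate 2 (0.13) and without Ctrl replicate 1 (0.057), and that of Syt7 without seq&Nicd OE replicate 1 (0.065), without seq&Nicd OE replicate 2 (0.099) and without Ctrl replicate 1 (0.0549). The prohormone convertase gene amon fell, with 19.5, 22.9 and 12.3 FPKM in seq&Nicd OE, against 45.4, 58.4 and 71.7 FPKM in Ctrl (log2 change -1.65 ± 0.35, adjusted p = 0.0077). With 1 library left out, the rises numbered 3 without seq&Nicd OE replicate 2, and the falls 4 without Ctrl replicate 1 and 4 without Ctrl replicate 2. In these fits 416 of all 6999 genes rose, and 575 and 1477 fell.

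Transcription factors of gut progenitors and epithelium gave 4 falls and 1 rise among 13 tested, against 8.12% called higher and 11.0% called lower of all genes, so the rise is at the share of all genes. The zinc-finger gene peb (FBgn0003053, X:4617564-4627206) had 27.8, 19.1 and 33.4 FPKM in seq&Nicd OE, against 345, 108 and 220.0 FPKM in Ctrl, all under Ctrl (log2 change -2.903 ± 0.44, adjusted p = 0.0010). GATAe, which keeps midgut identity, had 6.07, 5.23 and 7.66 FPKM in seq&Nicd OE, against 27.9, 36.3 and 18.3 FPKM in Ctrl, without overlap (log2 change -1.92 ± 0.35, adjusted p = 0.0029). The progenitor factor Sox21a had 23.7, 16.4 and 21.9 FPKM in seq&Nicd OE, against 117, 24.3 and 107 FPKM in Ctrl and missed the threshold (log2 change -1.68 ± 0.54, adjusted p = 0.0504). It was called lower with median scaling (0.042), with median-of-ratios scaling (0.0484), with a floor of 5 FPKM (0.0477), in the 15-library fit (0.0091) and without Ctrl replicate 2 (0.00031). Sox100B (log2 change -1.104) and lab (-1.18) fell. The call of Sox100B was lost with median scaling (0.065), with median-of-ratios scaling (0.082), without seq&Nicd OE replicate 1 (0.12), without seq&Nicd OE replicate 2 (0.15), without Ctrl replicate 1 (0.0518) and without Ctrl replicate 3 (0.095). That of lab was lost with no filter on low values (0.077), without seq&Nicd OE replicate 1 (0.13), without seq&Nicd OE replicate 2 (0.19), without seq&Nicd OE replicate 3 (0.079), without Ctrl replicate 1 (0.11) and without Ctrl replicate 3 (0.16). The POU factor gene vvl, which acts in trachea and the nervous system, rose, with 5.21, 3.398 and 13.3 FPKM in seq&Nicd OE, against 0.207, 0.116 and 0.0708 FPKM in Ctrl (log2 change 2.69 ± 0.38, adjusted p = 0.00070). As vvl passed the filter through seq&Nicd OE, its rise is a description. Falls numbered 2 without seq&Nicd OE replicate 1, 2 without seq&Nicd OE replicate 2, 2 without Ctrl replicate 1, 7 without Ctrl replicate 2 and 2 without Ctrl replicate 3. In the same order 348, 306, 575, 1477 and 463 of all 6999 genes fell. Digestive genes of enterocytes gave no call among 31 tested with limma at an adjusted p under 0.05 (0 higher and 0 lower, also with median scaling). Over all genes the shares were 8.12% higher and 11.0% lower, or 11.7% and 10.4% with median scaling. The median log2 change of the digestive genes was -0.33. The digestive genes summed to 228 to 657 FPKM in seq&Nicd OE and 193 to 1246 FPKM in Ctrl.

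Cell death genes split within the reaper group. Of 16 genes of JNK signalling and cell death tested, 3 rose and 7 fell, against 8.12% called higher and 11.0% called lower of all genes. The rises skl and grim averaged under 1 FPKM in Ctrl and passed the filter through seq&Nicd OE. The 3 rises were death activators that bind the inhibitor Diap1. The gene skl (FBgn0036786, 3L:18438561-18439942) had 39.03, 39.1 and 29.4 FPKM in seq&Nicd OE, against 0.717, 0.115 and 0.49 FPKM in Ctrl, far above Ctrl in each library (log2 change 4.69 ± 0.32, adjusted p = 1.2e-05). Its neighbour rpr had 34.2, 34.9 and 43.9 FPKM in seq&Nicd OE, against 1.56, 1.899 and 2.74 FPKM in Ctrl, without overlap (log2 change 3.67 ± 0.31, adjusted p = 5.0e-05). The gene grim had 4.13, 6.08 and 9.77 FPKM in seq&Nicd OE, against 0.169, 0.258 and 0.254 FPKM in Ctrl (log2 change 2.58 ± 0.30, adjusted p = 0.00024), with 75.9% of its exon bases shared, which makes its level uncertain. The fourth activator, hid, went the other way (log2 change -1.31 ± 0.29, adjusted p = 0.010). Of the caspase genes, Dronc and Drice fell and Dcp-1 was not called (adjusted p = 0.40). The initiator caspase gene Dronc had 4.89, 4.87 and 5.74 FPKM in seq&Nicd OE, against 44.5, 6.398 and 28.99 FPKM in Ctrl (log2 change -1.81 ± 0.57, adjusted p = 0.0462), and the effector caspase gene Drice fell (log2 change -1.58 ± 0.37, adjusted p = 0.013). The call of Dronc was lost with no filter on low values (0.13), with no variance trend (0.056), without seq&Nicd OE replicate 1 (0.12), without seq&Nicd OE replicate 2 (0.13), without seq&Nicd OE replicate 3 (0.11), without Ctrl replicate 1 (0.12) and without Ctrl replicate 3 (0.14), and its change was -2.58 without Ctrl replicate 2. That of Drice was lost without seq&Nicd OE replicate 1 (0.072), without seq&Nicd OE replicate 2 (0.072) and without Ctrl replicate 3 (0.060). Diap1 had 6.71, 11.6 and 6.93 FPKM in seq&Nicd OE, against 17.4, 77.96 and 14.8 FPKM in Ctrl and was not called (log2 change -1.63 ± 0.56, adjusted p = 0.065), but was lower in the 15-library fit (0.0071), without Ctrl replicate 1 (0.040), without Ctrl replicate 2 (0.0495) and without Ctrl replicate 3 (0.044).

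Of the JNK members of the list, kay, puc, Gadd45 and Jra fell, and bsk, hep (adjusted p = 0.18) and the ligand gene egr (adjusted p = 0.16) were not called. The AP-1 gene kay (FBgn0001297, 3R:29765995-29794113), the fly's Fos, had 47.4, 42.3 and 88.6 FPKM in seq&Nicd OE, against 719, 238 and 746 FPKM in Ctrl, all far under Ctrl (log2 change -3.14 ± 0.48, adjusted p = 0.0011). The phosphatase gene puc, a target and brake of JNK, had 19.8, 22.5 and 28.1 FPKM in seq&Nicd OE, against 138, 71.4 and 121 FPKM in Ctrl, without overlap (log2 change -2.14 ± 0.35, adjusted p = 0.0016). The stress gene Gadd45 had 47.5, 41.3 and 77.6 FPKM in seq&Nicd OE, against 294, 102 and 256 FPKM in Ctrl (log2 change -1.86 ± 0.44, adjusted p = 0.014). Gadd45 lost its call without seq&Nicd OE replicate 1 (0.058), without seq&Nicd OE replicate 2 (0.067) and without Ctrl replicate 3 (0.056). Jra, the fly's Jun, was also called lower (log2 change -1.11, adjusted p = 0.0462). Jra lost its call with no filter on low values (0.069), without seq&Nicd OE replicate 1 (0.17), without seq&Nicd OE replicate 2 (0.17), without seq&Nicd OE replicate 3 (0.077), without Ctrl replicate 1 (0.15) and without Ctrl replicate 3 (0.14). The kinase gene bsk overlapped between the groups and was not called (log2 change -0.01 ± 0.32, adjusted p = 0.98). Of the 16 members, the falls numbered 3 without seq&Nicd OE replicate 1, 3 without seq&Nicd OE replicate 2 and 4 without Ctrl replicate 3, beside 348, 306 and 463 of all 6999 genes. The rises stayed at 3 with each library left out.

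**Figure D4:**
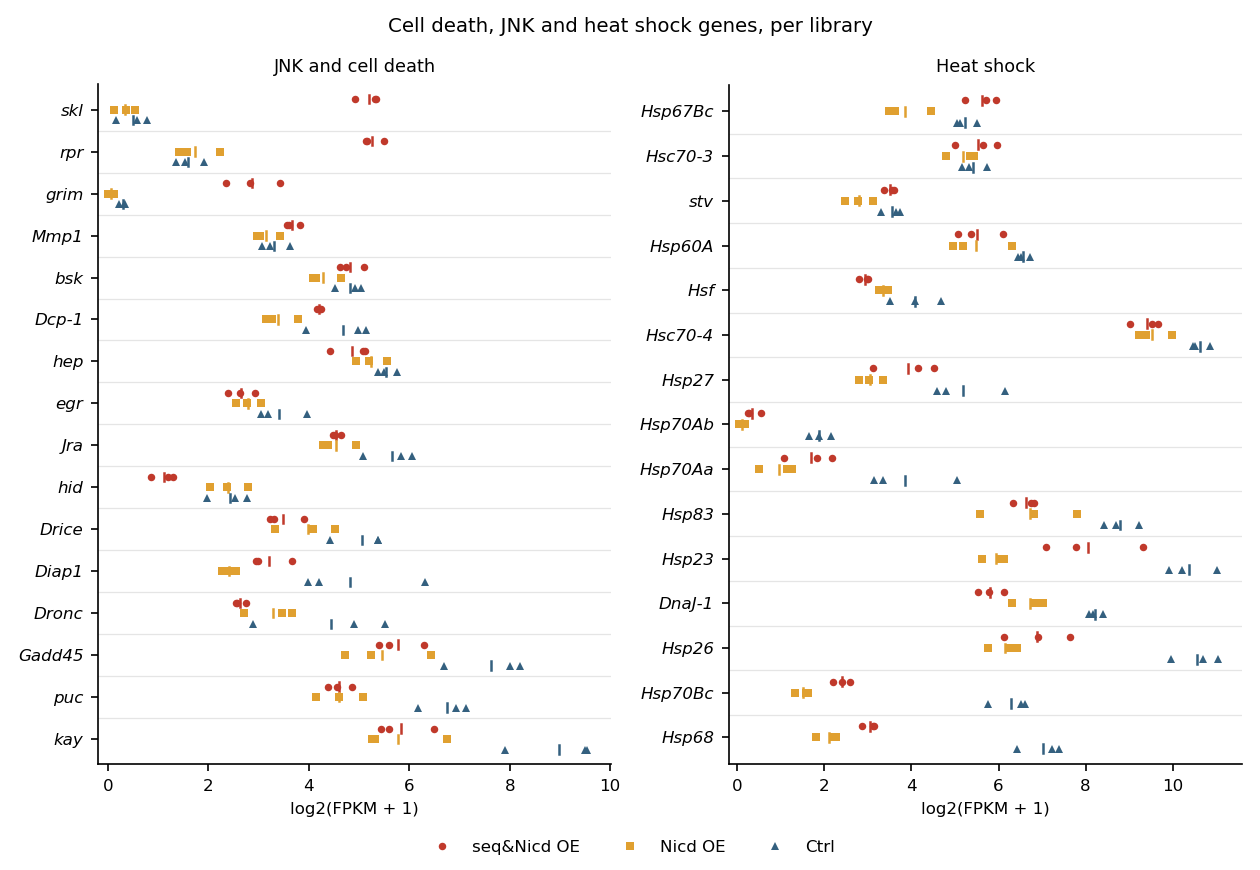
Each point is a library's log2(FPKM + 1) for tested genes of JNK signalling and cell death and of the heat shock response, seq&Nicd OE above Nicd OE and Ctrl, with ticks at the means. The death activators skl, rpr and grim stand clear of both other groups in seq&Nicd OE, whereas most heat shock genes are lower in seq&Nicd OE and Nicd OE than in Ctrl.

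Heat shock genes had a larger share of falls than any other list with at least 5 tested members. Of 15 tested, 10 fell and none rose, against 11.0% and 8.12% of all genes, and 8 fell with median scaling. Their median log2 change was -1.54, or -1.46 with median scaling. Hsp68 (FBgn0001230, 3R:24055080-24057310), an inducible chaperone of the Hsp70 family, had 7.72, 6.305 and 7.77 FPKM in seq&Nicd OE, against 150.1, 166 and 85.5 FPKM in Ctrl. The groups were far apart (log2 change -3.98 ± 0.35, adjusted p = 5.5e-05). Hsp70Bc had 3.61, 4.28 and 4.98 FPKM in seq&Nicd OE, against 96.2, 90.3 and 53.1 FPKM in Ctrl (log2 change -3.896 ± 0.34, adjusted p = 5.5e-05), and like the other Hsp70 genes it has near-identical copies that can share reads, so its level is uncertain. The small heat shock gene Hsp26 had 199, 68.3 and 119.7 FPKM in seq&Nicd OE, against 1647, 2109 and 998 FPKM in Ctrl, without overlap (log2 change -3.67 ± 0.44, adjusted p = 0.00029). Hsp83, the fly's Hsp90, had 111, 78.99 and 107 FPKM in seq&Nicd OE, against 598, 339 and 415 FPKM in Ctrl (log2 change -2.15 ± 0.34, adjusted p = 0.0013). The co-chaperone gene DnaJ-1 had 68.7, 54.1 and 45.3 FPKM in seq&Nicd OE, against 289, 339 and 269 FPKM in Ctrl (log2 change -2.41 ± 0.32, adjusted p = 0.00048). Among the falls, the calls of Hsp23, Hsp70Aa, Hsc70-4 and Hsf were lost in at least 1 alternative. Not called were Hsp67Bc, Hsc70-3, stv, Hsp60A and Hsp27.

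In JAK/STAT signalling 3 of 8 tested fell (11.0% of all genes) and none rose (8.12% of all genes). The ligand gene upd2 (FBgn0030904, X:18240654-18243284), a cytokine released by stressed gut cells, had 5.93, 1.66 and 4.32 FPKM in seq&Nicd OE, against 259.7, 59.9 and 103 FPKM in Ctrl. All seq&Nicd OE libraries were far under Ctrl (log2 change -4.68 ± 0.54, adjusted p = 0.00024). The feedback inhibitor gene Socs36E had 70.8, 41.96 and 63.04 FPKM in seq&Nicd OE, against 454, 173 and 318 FPKM in Ctrl, without overlap (log2 change -2.34 ± 0.41, adjusted p = 0.0023). The receptor gene dome fell less (log2 change -1.14 ± 0.30, adjusted p = 0.023). dome lost its call without seq&Nicd OE replicate 1 (0.080), without seq&Nicd OE replicate 2 (0.15), without Ctrl replicate 1 (0.057) and without Ctrl replicate 3 (0.086). The transcription factor gene Stat92E was not called (adjusted p = 0.46). 

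Of 14 EGFR pathway genes tested, 4 fell and 1 rose, against 8.12% called higher and 11.0% called lower of all genes, so the rise is at the share of all genes. The ligand-processing gene rho (adjusted p = 0.13) and the inhibitor gene aos (adjusted p = 0.12) were not called. The gene S, whose product Star helps move EGFR ligands through the cell, had 2.79, 1.87 and 4.45 FPKM in seq&Nicd OE, against 20.8, 17.6 and 24.5 FPKM in Ctrl, without overlap (log2 change -2.48 ± 0.34, adjusted p = 0.00063). The ligand gene vn had 0.652, 0.464 and 1.46 FPKM in seq&Nicd OE, against 2.78, 5.72 and 8.93 FPKM in Ctrl (log2 change -1.803 ± 0.37, adjusted p = 0.0064), and pnt fell as given above. As vn averaged under 1 FPKM in seq&Nicd OE and passed the filter through Ctrl, its fall and the list's count of falls are a description. The feedback inhibitor gene sty fell (log2 change -1.44 ± 0.44, adjusted p = 0.043). sty lost its call with quantile normalization (0.066), with no filter on low values (0.10), without seq&Nicd OE replicate 1 (0.095), without seq&Nicd OE replicate 2 (0.18), without seq&Nicd OE replicate 3 (0.084), without Ctrl replicate 1 (0.13) and without Ctrl replicate 3 (0.14). The MAP kinase phosphatase gene Mkp3 (FBgn0036844, 3L:19066155-19086426), which acts on this pathway but is not in the list, was among the 15 largest falls, with 6.76, 5.55 and 5.48 FPKM in seq&Nicd OE, against 116, 49.2 and 95.6 FPKM in Ctrl (log2 change -3.58 ± 0.37, adjusted p = 0.00015). The rise was kek1, an EGFR inhibitor gene (log2 change 1.29, adjusted p = 0.031). kek1 lost its call with no filter on low values (0.093), without seq&Nicd OE replicate 1 (0.0522), without seq&Nicd OE replicate 3 (0.065), without Ctrl replicate 1 (0.086) and without Ctrl replicate 3 (0.083). The ligand gene spi had 42.3, 34.8 and 79.3 FPKM in seq&Nicd OE, against 248, 39.97 and 207 FPKM in Ctrl, with overlap (log2 change -1.37 ± 0.62, adjusted p = 0.15), and was lower in the 15-library fit (0.0479) and without Ctrl replicate 2 (0.0019). Falls in the list numbered 2 without seq&Nicd OE replicate 2 and 7 without Ctrl replicate 2, beside 306 and 1477 of all 6999 genes.

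The largest fall was that of CG45060 (FBgn0266430, X:9868068-9868568), an uncharacterised gene, with 9.801, 2.83 and 21.1 FPKM in seq&Nicd OE, against 813, 418 and 604 FPKM in Ctrl. It was lower in every seq&Nicd OE library (log2 change -5.93 ± 0.56, adjusted p = 8.4e-05, and -5.26 without seq&Nicd OE replicate 2 and -6.52 without seq&Nicd OE replicate 3). Its neighbour CG45061 (FBgn0266431, X:9871098-9871702) had 30.02, 12.9 and 52.5 FPKM in seq&Nicd OE, against 573, 1363 and 616 FPKM in Ctrl (log2 change -4.78 ± 0.51, adjusted p = 0.00016). CG6357 (FBgn0033875, 2R:13840053-13841743) had 7.78, 7.71 and 8.99 FPKM in seq&Nicd OE, against 488, 259.5 and 664 FPKM in Ctrl, a narrow range in seq&Nicd OE far under Ctrl (log2 change -5.59 ± 0.38, adjusted p = 1.2e-05). CG12934 fell (log2 change -3.63), as did RabX1, a gene of the Rab GTPase family (-3.37). Also among the 15 largest falls was Nap1, a histone chaperone gene, with 0.18, 0.179 and 19.1 FPKM in seq&Nicd OE, against 34.98, 22.6 and 35.1 FPKM in Ctrl. For Nap1, replicate 3 of seq&Nicd OE was close to Ctrl and the other 2 libraries of seq&Nicd OE were near 0 (log2 change -3.37 ± 0.89, adjusted p = 0.023). Its call was lost with no filter on low values (0.095), without seq&Nicd OE replicate 1 (0.080), without seq&Nicd OE replicate 2 (0.088) and without Ctrl replicate 3 (0.062), its change was -2.69 without seq&Nicd OE replicate 1, -2.68 without seq&Nicd OE replicate 2 and -4.73 without seq&Nicd OE replicate 3, and 73.01% of its exon bases are shared with another gene, so its value is uncertain.

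Asymmetric division genes, which set neuroblast polarity and hand fate determinants to a daughter cell, gave 3 falls and no rise among 17 tested, against 8.12% called higher and 11.0% called lower of all genes. With median scaling 4 fell, Galphai among them. The adaptor gene insc had 6.73, 6.62 and 10.6 FPKM in seq&Nicd OE, against 40.4, 39.9 and 42.9 FPKM in Ctrl, all under Ctrl (log2 change -2.25 ± 0.32, adjusted p = 0.00069). The G-protein regulator gene loco had 10.6, 7.98 and 9.35 FPKM in seq&Nicd OE, against 60.02, 36.5 and 36.7 FPKM in Ctrl (log2 change -2.11 ± 0.33, adjusted p = 0.0013). The translational repressor gene brat, which restrains neuroblast renewal, had 11.2, 8.75 and 9.55 FPKM in seq&Nicd OE, against 37.2, 21.8 and 37.1 FPKM in Ctrl (log2 change -1.57 ± 0.33, adjusted p = 0.0077). brat lost its call without seq&Nicd OE replicate 2 (0.0505). Neither numb (adjusted p = 0.57) nor mira (adjusted p = 0.12) nor aPKC (adjusted p = 0.52) was called. Without Ctrl replicate 2, 8 of the 17 fell, beside 1477 of all 6999 genes, and without seq&Nicd OE replicate 2, 2 did, beside 306.

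Cell cycle genes gave 4 rises and no fall among 35 tested, near the 8.12% of all genes called higher, or 6 rises with median scaling, where 11.7% of all genes were called higher. CycE (FBgn0010382, 2L:15727581-15748150), the cyclin that opens S phase, had 11.01, 7.98 and 10.2 FPKM in seq&Nicd OE, against 0.883, 0.221 and 0.855 FPKM in Ctrl. Every seq&Nicd OE library was several times above Ctrl (log2 change 2.71 ± 0.30, adjusted p = 0.00019). CycE averaged under 1 FPKM in Ctrl and passed the filter through seq&Nicd OE, so its rise is a description. The mitotic cyclin gene CycB had 4.96, 5.55 and 13.9 FPKM in seq&Nicd OE, against 3.696, 1.15 and 0.94 FPKM in Ctrl, highest in replicate 3 (log2 change 1.63 ± 0.45, adjusted p = 0.027). Its relative CycB3 had 4.15, 4.04 and 7.87 FPKM in seq&Nicd OE, against 2.74, 0.842 and 1.02 FPKM in Ctrl (log2 change 1.35 ± 0.36, adjusted p = 0.024), and the phosphatase gene stg, which opens mitosis, had 52.6, 56.6 and 64.8 FPKM in seq&Nicd OE, against 33.1, 21.7 and 25.7 FPKM in Ctrl (log2 change 1.098 ± 0.32, adjusted p = 0.033). The call of CycB was lost with no filter on low values (0.083), without seq&Nicd OE replicate 3 (0.087) and without Ctrl replicate 3 (0.10). That of CycB3 was lost with no filter on low values (0.072), without seq&Nicd OE replicate 3 (0.076) and without Ctrl replicate 3 (0.095), and that of stg without seq&Nicd OE replicate 1 (0.11), without seq&Nicd OE replicate 2 (0.13), without seq&Nicd OE replicate 3 (0.070) and without Ctrl replicate 3 (0.099). The replication gene PCNA had 9.64, 8.03 and 42.4 FPKM in seq&Nicd OE, against 23.4, 46.9 and 9.42 FPKM in Ctrl, with overlap (log2 change -0.51 ± 0.65, adjusted p = 0.63). The count of rises was 1 without seq&Nicd OE replicate 3 and 1 without Ctrl replicate 3, and without Ctrl replicate 2, 5 members fell. In these fits 479 and 446 of all 6999 genes rose, and 1477 fell. Of 78 cytosolic ribosomal protein genes, 5 fell and none rose as deposited, against 11.0% and 8.12% of all genes. With median scaling none was called in either direction, and in Ctrl replicate 2 their summed level was the highest, 216851 FPKM, against at most 113225 FPKM in seq&Nicd OE.

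**Figure D5:**
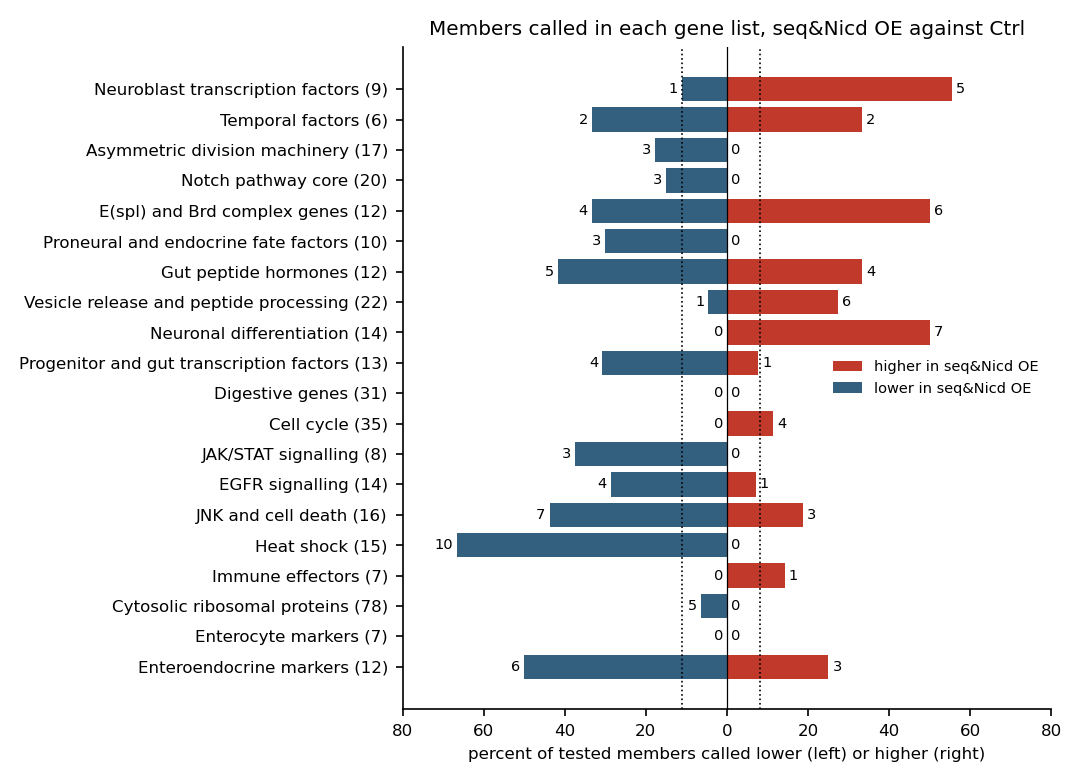
Bars give the percent of the tested members of each list (number in brackets) that were called lower (left, blue) or higher (right, red) in seq&Nicd OE than in Ctrl, with the count at the end of each bar and dotted lines at the 11.0% and 8.12% called over all genes. Of the lists drawn, those with at least 5 tested members, neuroblast factors, E(spl) genes and neuronal differentiation genes have the largest shares of rises, and heat shock genes the largest share of falls with 10 of 15.

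Set against Nicd OE, which carries Nicd without the seq label, seq&Nicd OE had more genes higher than lower as deposited, a split that depended on scaling. With quantile normalization 817 genes were higher and 842 lower. This comparison shares the seq&Nicd OE libraries with the one above. Of 6562 genes tested, 953 were higher (14.5%) and 265 lower (4.04%), 18.6% in all. With median scaling there were 882 higher (13.4%) and 850 lower (13%), 26.4% in all, and the median log2 change of all genes was 0.24 as deposited and -0.06 with median scaling. With the replicate number as a block, 1798 genes were higher (27.4%) and 487 lower (7.42%), 34.8% in all. The libraries did not overlap in 34.0% of genes (25.8% higher and 8.23% lower). Without Nicd OE replicate 3 there were 1429 higher and 269 lower, and without replicate 1, 642 and 217.

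The genes of the neuroblast list that rose over Ctrl were also higher than in Nicd OE. Of 9 tested 7 rose and none fell, or 6 rose and 1 fell with median scaling, against 14.5% and 4.04% of all genes, and 6 of the 9 averaged at least 1 FPKM in Nicd OE. The others passed the filter through seq&Nicd OE, so these counts are a description. The gene sna had 0.752, 0.489 and 2.13 FPKM in Nicd OE (log2 change 7.55 ± 0.31, adjusted p = 4.5e-07). The gene dpn had 0.774, 1.75 and 3.42 FPKM in Nicd OE (log2 change 6.303 ± 0.36, adjusted p = 1.4e-06), and wor had 0.435, 0.384 and 0.872 FPKM in Nicd OE (log2 change 5.07 ± 0.26, adjusted p = 1.2e-06). The factor pros, not called against Ctrl, had 1.27, 1.496 and 2.03 FPKM in Nicd OE and was higher in seq&Nicd OE (log2 change 1.64 ± 0.23, adjusted p = 0.00040). The non-coding gene lncRNA:CR30009 had 1.799, 1.23 and 9.93 FPKM in Nicd OE (log2 change 9.03 ± 0.50, adjusted p = 1.4e-06, and 9.74 without Nicd OE replicate 3), and lncRNA:CR44272 had 30.7, 15.1 and 47.3 FPKM in Nicd OE (log2 change 6.23 ± 0.38, adjusted p = 2.2e-06). The hormone gene Dh31 had 2.52, 1.09 and 4.96 FPKM in Nicd OE, the last of the 5 largest rises (log2 change 6.16 ± 0.40, adjusted p = 2.9e-06).

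E(spl) genes again split. Of 12 tested, 7 were higher and 4 lower than in Nicd OE, against 14.5% and 4.04% of all genes, and 8 of the 12 averaged at least 1 FPKM in Nicd OE. The others passed the filter through seq&Nicd OE, so these counts are a description. E(spl)m8-HLH had 0.186, 0.434 and 1.49 FPKM in Nicd OE, so that Nicd OE was the lowest of the 3 groups (log2 change 5.300 ± 0.30, adjusted p = 1.4e-06). E(spl)m7-HLH followed the same order, with 8.36, 6.34 and 9.54 FPKM in Nicd OE (log2 change 2.92 ± 0.28, adjusted p = 3.6e-05). E(spl)mgamma-HLH had 60.1, 61.8 and 75.9 FPKM in Nicd OE, between the other groups (log2 change 2.06 ± 0.23, adjusted p = 9.6e-05). The largest fall of this comparison was E(spl)m3-HLH, with 378, 368 and 440.4 FPKM in Nicd OE (log2 change -3.603 ± 0.32, adjusted p = 2.1e-05). Other large falls were the protease gene Jon99Cii (4.62, 2.49 and 11.3 FPKM in seq&Nicd OE, against 80.4, 104 and 31.3 FPKM in Nicd OE, adjusted p = 0.00060), CG12464 (log2 change -3.35), CG30049 (-3.23) and asRNA:CR44599 (-3.36), an antisense gene with 72.2% of its exon bases shared, so its value is uncertain.

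The neuronal, vesicle and cell cycle lists gave the following counts against Nicd OE, where 14.5% of all genes were called higher and 4.04% lower. Members that averaged under 1 FPKM in Nicd OE passed the filter through seq&Nicd OE, so these counts are a description. In Nicd OE 8 of 14 neuronal, 19 of 22 vesicle and 26 of 31 cell cycle genes averaged at least 1 FPKM. Of 14 neuronal genes tested 13 rose, elav among them with 1.82, 3.09 and 3.72 FPKM in Nicd OE (log2 change 0.94 ± 0.26, adjusted p = 0.025), a call lost without seq&Nicd OE replicate 1 (0.073), without seq&Nicd OE replicate 2 (0.087), without Nicd OE replicate 1 (0.087) and without Nicd OE replicate 2 (0.077). The gene nrv3 had 43.3, 42.99 and 128 FPKM in Nicd OE (log2 change 3.004 ± 0.39, adjusted p = 0.00025), and Appl had 8.18, 8.96 and 10.4 FPKM in Nicd OE (log2 change 3.74 ± 0.29, adjusted p = 8.8e-06). Of 22 vesicle genes 13 rose and none fell. Digestive genes gave 2 rises and 9 falls among 31, against the same 14.5% and 4.04% of all genes, and none of 78 ribosomal protein genes was called as deposited, with 2 lower under median scaling. Of 31 cell cycle genes 17 rose and none fell, or 26 with the replicate block and 7 without Nicd OE replicate 1. The last 2 settings called 1798 and 642 of all 6562 genes higher. The phosphatase gene stg had 1.59, 2.21 and 4.04 FPKM in Nicd OE (log2 change 4.08 ± 0.29, adjusted p = 5.8e-06), CycE had 0.319, 0.287 and 0.657 FPKM in Nicd OE (log2 change 2.91 ± 0.23, adjusted p = 1.0e-05), and polo, a mitotic kinase gene, had 11.9, 11.9 and 37.8 FPKM in seq&Nicd OE, against 0.818, 1.75 and 2.56 FPKM in Nicd OE (log2 change 2.83 ± 0.43, adjusted p = 0.00065). Of 16 genes of JNK signalling and cell death 3 rose and 1 fell. Of 8 JAK/STAT genes 1 rose and none fell, and of 13 EGFR genes 2 rose and 1 fell. Of 17 asymmetric division genes none rose and 1 fell, and of 20 Notch pathway genes 2 rose and 1 fell. In that order, median scaling gave 4, 1, 2, 5 and 3 falls, beside 850 of all 6562 genes. The death activators rpr (1.99, 1.65 and 3.71 FPKM in Nicd OE, log2 change 3.52) and skl (0.285, 0.0805 and 0.446 FPKM in Nicd OE, 4.86) were higher. Heat shock genes gave 4 rises and 2 falls among 15, again beside 14.5% and 4.04% of all genes. In the hormone list 5 of 10 tested rose and none fell, beside 14.5% and 4.04% of all genes, or 3 rose with median scaling, beside 13.4%. NPF had 786, 703 and 1323 FPKM in Nicd OE, under seq&Nicd OE and far under Ctrl (log2 change 1.24 ± 0.27, adjusted p = 0.0078), and its call was lost in the 15-library fit (0.094) and without Nicd OE replicate 1 (0.057).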

How the data were processed

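Values were taken from the deposited table of FPKM per gene (17558 genes, 15 libraries), which the authors made with normalization to transcript length and library depth. The submitters' processing notes name STAR 2.6.1a, DESeq2 and BDGP6, without saying which step gave these values, and the counting tool and its use of strand are not given in the sources used here. Depth was estimated from the steps of low FPKM values, of which 98.1% to 98.6% came out as whole reads within 0.02 reads. From the table, log2(FPKM + 1) was fitted with limma 3.58.1 in R 4.3.3 (moderated variances with a trend, Benjamini-Hochberg adjustment over all genes tested) on the 6 libraries compared, for genes with at least 1 FPKM in at least 3 of them, and a gene was called at an adjusted p under 0.05. The fit was tested on simulated data with the same spread in every gene and library, so that test does not cover uneven spread between libraries. Genes were named if they were in the label, in 1 of 24 lists, or among the 15 largest called rises and 15 largest called falls (5 each against Nicd OE) whose libraries did not overlap and whose mean reached 10 FPKM in 1 of the groups; at most 8 genes of a list are given by library. The lists hold 535 entries, of which 516 were matched by symbol and 365 were tested. The genes, lists and comparison were chosen with earlier results of these data known. Coordinates, gene classes and shared exon bases come from the BDGP6.54 annotation. In the comparison with Nicd OE, deviations of same-numbered libraries from their group means correlated at 0.20, 0.20 and 0.42, which was taken as pairing by the rule that each exceed 0.1, although the labels state none and seq&Nicd OE replicate 2 correlated more with Nicd OE replicate 1 (0.27). Columns were also scaled to a common median, among 15 alternatives for each comparison. No sequences were used here.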

Additional observations from a re-analysis of the deposited data

How the results depend on the processing

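Against Ctrl, the count of 1340 changed genes was 711 with a floor of 5 FPKM (271 higher and 440 lower) and 2508 in the 15-library fit (912 higher and 1596 lower), with fewer genes tested in the first and more libraries behind the spread in the second. With quantile normalization 856 genes were higher and with median-of-ratios scaling 867. Leaving out 1 library gave 722 to 2117 changed genes, 416 to 640 higher and 306 to 1477 lower. With the replicate number as a block there were 1600, but same-numbered libraries of these groups correlated at -0.0050, 0.085 and -0.22 in their deviations and share only a number. Against Nicd OE, the count of 1218 was 575 with a floor of 5 FPKM (442 higher and 133 lower) and 2285 with the replicate block (1798 higher and 487 lower). Median scaling gave 882 higher and 850 lower, quantile normalization 817 and 842, and median-of-ratios scaling 958 and 725. Leaving out 1 library gave 859 to 1698 changed genes, 642 to 1429 higher and 178 to 269 lower. Of the 44 results for genes named by size or label, 651 of 659 alternatives kept the side of the threshold, 6 lost the call and 2 gained it. Of called changes 0 reversed, while a change of sign in a result that was not called was not counted. Most of these genes were picked as the largest called changes without overlap, so this count says little about other genes. Over the genes of all lists as well, 38 of 111 calls against Ctrl (10 with median scaling) and 44 of 116 against Nicd OE (5 with median scaling) were lost in at least 1 alternative, and none changed sign. The causes of these shifts were not tested. FPKM values of a few reads, as for Idgf4 in Ctrl, are limited by depth.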

Other observations

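The calls between seq&Nicd OE and Ctrl were also counted by class of transcript. Of 242 non-coding RNA genes tested, 53 rose (21.9%) and 40 fell (16.5%), and of 6529 protein-coding genes 494 rose (7.57%) and 706 fell (10.8%). Of 46 snoRNA genes none rose and 8 fell (17.4%) with limma at an adjusted p under 0.05, against 8.12% and 11.0% of all genes. The difference between classes was not tested. Against Nicd OE, 69 of 209 non-coding RNA genes were higher (33.0%) and 17 lower (8.13%), beside 14.5% and 4.04% of all genes.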
